A study of Mus musculus with 4 samples.

Results

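The library labelled Klf4 dEC Nos3 null was set against the library labelled Nos3 null in single-nucleus RNA sequencing of mouse kidney cortex, cluster by cluster outside the endothelium. These are 2 of the 4 libraries of the study, and 19 of the 23 clusters into which the authors had divided the nuclei: clusters 0 to 19 without cluster 10, which carried endothelial markers. The 4 libraries, with 1 library per genotype, are Klf4 dEC Nos3 null (Klf4deltaECNos3-/-), Nos3 null (Nos3-/-), Klf4 dEC (Klf4deltaEC) and control (Klf4flox/flox), all on C57BL/6J. The floxed allele is stated for the control alone, and the Cre driver of the endothelial deletion, the alleles' deleted parts, and whether a library holds 1 mouse or several are not stated in the labels. The study's title states the question as what lowering endothelial Klf4 does with Nos3 intact and with Nos3 lost. Both libraries of the main comparison carry the Nos3-/- label, and Klf4 dEC over control, which shares no library with it, is given beside it as the same label difference with Nos3 intact.

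KLF4 is a zinc-finger transcription factor of the vessel lining, where it is known for keeping endothelial cells quiescent and anti-inflammatory. NOS3 is the endothelial nitric oxide synthase, which relaxes vessels through cyclic GMP. Neither gene is mainly a tubule gene. The nephron's segments are known by their transporters: the proximal tubule reclaims glucose, phosphate and filtered protein, the thick ascending limb and distal convoluted tubule reclaim salt, the connecting tubule reclaims calcium, and the collecting duct's principal and intercalated cells adjust water, sodium and acid.

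The deposited values are mean UMIs per 10000 UMIs of a nucleus, averaged over the nuclei of a cluster in a library, where a UMI marks 1 captured RNA molecule. The number of nuclei in the 19 clusters, inferred from the values, was 5162 in Klf4 dEC Nos3 null, 6605 in Nos3 null, 6450 in Klf4 dEC and 6357 in the control. The nuclei-weighted median depth was 4312 UMIs per nucleus in Klf4 dEC Nos3 null and 2355 in Nos3 null, against 3468 in Klf4 dEC and 3838 in the control, so the library labelled Nos3 null was the shallowest. No genotype has a second library, so no test, p-value or standard error is possible, and each difference is one between 2 libraries. Brackets after a level, a share or the ratio of 1 cluster hold 95% exact counting intervals, for a ratio before any constant is added, and leave out differences between nuclei, mice and preparations. Brackets after a median ratio over clusters hold its lowest and highest cluster.

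The targeted genes did not show the labelled deletions. In the endothelial cluster, Klf4 per 10000 was 0.824 (0.547 to 1.19) in Klf4 dEC Nos3 null and 0.445 (0.264 to 0.702) in Nos3 null, with 0.779 (0.533 to 1.10) in Klf4 dEC and 0.621 (0.406 to 0.910) in the control. The log2 ratio of the first pair was 0.76 (-0.02 to 1.83). Over the 19 clusters the median Klf4 level was 0.0119 in Klf4 dEC Nos3 null, 0.00949 in Nos3 null, 0.0219 in Klf4 dEC and 0.0102 in the control, so the gene was near 0 in most of them. Stroma-like cluster 13 was the exception in Klf4 dEC, with 0.0759 in Klf4 dEC Nos3 null and 0.0596 in Nos3 null, against 0.965 in Klf4 dEC and 0.213 in the control. Endothelial Nos3 was 2.07 (1.61 to 2.61) in Klf4 dEC Nos3 null and 1.52 (1.16 to 1.95) in Nos3 null, against 0.930 in Klf4 dEC and 1.26 in the control. Tags from outside a deleted part check nothing, and the libraries are therefore called by their labels throughout.

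Clusters were named from segment markers: podocyte-like (15), proximal tubule-like (0, 1, 3, 5, 6 and 12), thin limb-like (18), thick ascending limb-like (2, 4 and 19), distal convoluted tubule-like (9), connecting tubule-like (11 and 17), principal cell-like (8), intercalated cell-like (14 and 16) and stroma-like (13). Cluster 7 carried proximal and thick ascending limb markers at nearly equal scores, 1.61 and 1.48, and stayed unnamed. Cluster 17 also scored 3.03 for principal cells beside 4.11 for connecting tubule, and cluster 13 scored 2.58 for endothelium beside 3.40 for stroma. Cluster 12 was the shallowest, at a median of 789 UMIs in Klf4 dEC Nos3 null and 1016 in Nos3 null.

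The classes took different shares of the nuclei. Proximal tubule-like nuclei made up 42.0% (40.7 to 43.4) of the 19 clusters in Klf4 dEC Nos3 null and 54.2% (53.0 to 55.4) in Nos3 null, with 51.1% in Klf4 dEC and 49.0% in the control. Thick ascending limb-like nuclei made up 26.5% (25.3 to 27.7) in Klf4 dEC Nos3 null and 15.9% (15 to 16.8) in Nos3 null, with 16.4% in Klf4 dEC and 22.8% in the control. Principal cell-like nuclei were 5.81% in Klf4 dEC Nos3 null and 2.76% in Nos3 null, against 5.38% in Klf4 dEC and 4.67% in the control. With 1 library each, genotype and the piece of cortex taken cannot be told apart.

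Genes at 0.5 per 10000 or more in either library entered each cluster, and a log2 ratio was taken after adding 0.1 per 10000 to each value, which understates the ratio of low genes. Of 81741 pairs of a gene and a cluster, 5348 (6.54%) were higher by a log2 ratio of 1 or more in Klf4 dEC Nos3 null than in Nos3 null, and 5027 (6.15%) were lower by as much. In Klf4 dEC over control, 1699 (2.24%) of 75804 pairs were higher and 1478 (1.95%) lower. The share past the limit in either direction was the larger in Klf4 dEC Nos3 null over Nos3 null in 19 of 19 clusters.

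Clusters differed widely in how many genes passed. Proximal tubule-like cluster 12 had 1185 higher and 679 lower of 5030 genes, 37.1% in all, against 17.1% in Klf4 dEC over control. The other proximal tubule-like clusters had fewer, for example 149 higher and 82 lower of 3917 genes in cluster 0, or 5.90% (1.34% in Klf4 dEC over control). Higher genes outnumbered lower ones in all 6 proximal tubule-like clusters. Lower genes outnumbered higher ones in the thick ascending limb-like, principal cell-like, distal convoluted tubule-like and connecting tubule-like clusters: cluster 2 had 174 higher and 304 lower of 4316, and cluster 8 had 309 higher and 364 lower of 4504. Thin limb-like cluster 18 had 21.6% and thick ascending limb-like cluster 19 had 19%, where Klf4 dEC over control also had 9.30% and 10.0%. The median log2 ratio of all genes lay between -0.04 and 0.05 in the 19 clusters.

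Higher genes made up 3.8% in cluster 0, 3.74% in cluster 1, 2.95% in cluster 3, 3.56% in cluster 5, 3.41% in cluster 6 and 23.6% in cluster 12, the proximal tubule-like clusters, and lower genes 2.09%, 2.39%, 2.84%, 2.42%, 2.01% and 13.5% in the same clusters. In the thick ascending limb-like clusters 2, 4 and 19, higher genes made up 4.03%, 3.52% and 8.94% and lower genes 7.04%, 6.06% and 10.1%. Higher genes made up 6.86%, 3.64%, 3.35% and 7.84% in clusters 8, 9, 11 and 17, from principal cells to the connecting tubule, and lower genes 8.08%, 5.39%, 6.44% and 10%. The intercalated cell-like clusters 14 and 16 had 3.6% and 10.2% higher and 2.45% and 11.1% lower. Cluster 7 had 2.94% higher and 1.5% lower, stroma-like cluster 13 had 5.87% and 3.3%, podocyte-like cluster 15 had 5.58% and 6.08%, and thin limb-like cluster 18 had 11.5% and 10.1%.

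**Figure D1:**
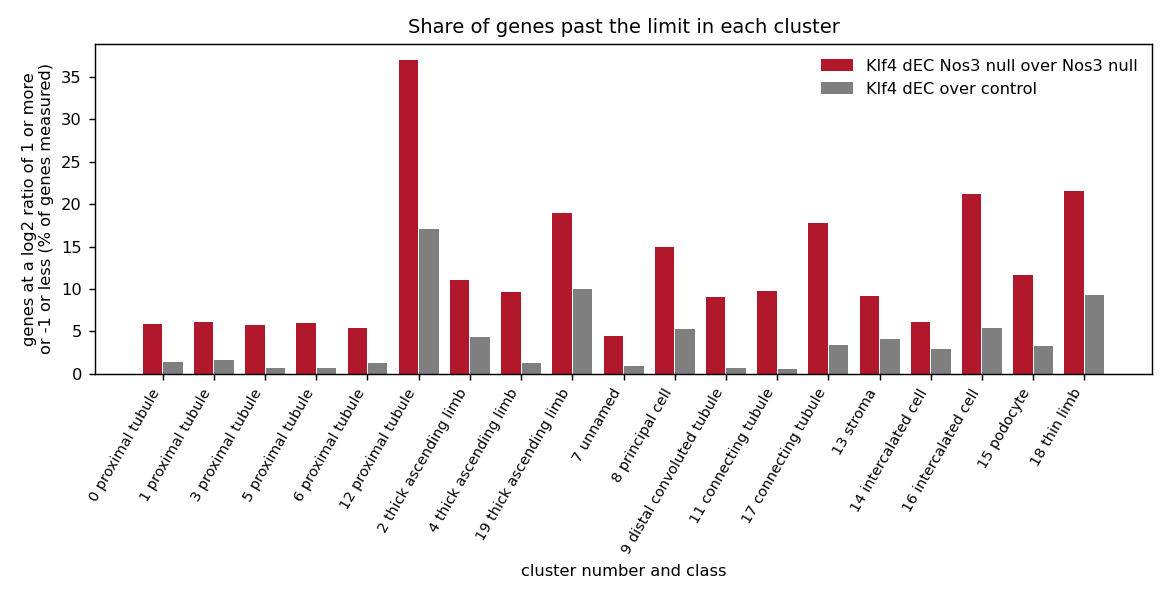
Share of measured genes at a log2 ratio of 1 or more or -1 or less in each of 19 clusters, in percent, with red bars for the ratio of Klf4 dEC Nos3 null to Nos3 null and grey bars for Klf4 dEC to control. The red bar is the taller in 19 of 19 clusters, and cluster 12 has the tallest red bar at 37.1%.

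Shifts common to the clusters were separated first. A gene was called shared where it was measured in at least 15 clusters, had the same sign in every cluster where it was measured, and had a median log2 ratio over those clusters of 1 or more or -1 or less. Of 3219 genes measured in at least 15 clusters, 46 (1.43%) were shared and higher in Klf4 dEC Nos3 null and 49 (1.52%) were shared and lower. At the threshold, Atxn2l was just inside at 1.00 and Epo just outside at 0.99, and on the lower side Pcsk5 was inside at -1.02 and Nat8f3 outside at -1.0. In Klf4 dEC over control, 2 of 2803 genes (0.0714%) were shared and higher, both known by predicted names only, and 0 were lower. No gene was shared in both comparisons.

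Among the shared higher genes were mitochondrially encoded, ferritin, ubiquitin and splicing factor genes, most of them short. Mettl23, which encodes a methyltransferase, led them, followed by Ubb, a polyubiquitin gene. Mettl23 had a median over clusters of 1.12 per 10000 in Klf4 dEC Nos3 null and 0.0977 in Nos3 null, against 0.994 in Klf4 dEC and 1.04 in the control. Its lowest cluster in Klf4 dEC Nos3 null (0.838) lay above its highest in Nos3 null (0.161), and the median log2 ratio was 2.71 (range over clusters 2.15 to 3.31). Intercalated cell-like cluster 16 of Nos3 null was the 1 cluster listed at 0. Mettl23 spans bases 116843278 to 116854263 of chromosome 11, plus strand (GRCm38, GENCODE), and Srsf2, a splicing factor gene on the minus strand from 116849901 to 116853094, lies inside it over 3194 bases. RefSeq ends Mettl23 at 116849740, before Srsf2, so the overlap is that of GENCODE alone. Where GENCODE genes are counted, reads over that stretch cannot be assigned to either gene unless strand is used, and the sources used here state neither. Srsf2 was itself shared and higher, at 2.57 in Klf4 dEC Nos3 null and 1.02 in Nos3 null, against 1.98 in Klf4 dEC and 2.24 in the control, a log2 ratio of 1.38.

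Windows of 250 bases before a RefSeq transcript start of each of these genes (GRCm38.p6, read 5′ to 3′ on each gene's strand; RefSeq starts Mettl23 at 116843515, inside the GENCODE span) are shown because Mettl23 and Ubb had the highest log2 ratios of the shared genes and Srsf2 shares the Mettl23 locus. Capitals mark heat shock elements, written TTCNNGAA or GAANNTTC, and CCAAT boxes, written CCAAT or its reverse complement ATTGG; overlapping matches run together.
Mettl23, chr11:116843265-116843514, plus strand: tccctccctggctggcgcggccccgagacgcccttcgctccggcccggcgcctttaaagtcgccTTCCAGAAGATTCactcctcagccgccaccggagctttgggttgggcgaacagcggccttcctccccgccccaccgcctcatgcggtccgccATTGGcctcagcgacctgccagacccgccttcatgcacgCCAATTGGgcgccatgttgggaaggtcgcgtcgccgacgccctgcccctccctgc
Ubb, chr11:62550921-62551170, plus strand: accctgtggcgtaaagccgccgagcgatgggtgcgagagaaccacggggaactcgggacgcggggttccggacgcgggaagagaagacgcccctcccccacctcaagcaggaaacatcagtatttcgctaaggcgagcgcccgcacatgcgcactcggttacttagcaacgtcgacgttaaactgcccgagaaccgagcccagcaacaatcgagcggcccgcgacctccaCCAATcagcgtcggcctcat
Srsf2, chr11:116853095-116853344, minus strand: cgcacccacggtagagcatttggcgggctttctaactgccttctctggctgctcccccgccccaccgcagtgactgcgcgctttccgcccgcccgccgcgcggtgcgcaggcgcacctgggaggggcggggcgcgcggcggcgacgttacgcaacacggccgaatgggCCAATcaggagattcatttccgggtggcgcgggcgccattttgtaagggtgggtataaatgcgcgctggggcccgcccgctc
The Mettl23 window holds 2 overlapping heat shock elements and 3 CCAAT boxes, and the windows of Ubb and Srsf2 hold 1 CCAAT box each and 0 heat shock elements. Of all 27025 genes with a promoter entry, 14.5% hold a heat shock element and 37.5% a CCAAT box in any of their windows. Among shared genes with a window, a heat shock element occurs in 5 of 28 higher and 4 of 37 lower genes, and a CCAAT box in 16 of 28 and 17 of 37. A match is a run of letters and not a measured binding site.

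Ubb had a median of 1.05 in Klf4 dEC Nos3 null and 0.0869 in Nos3 null, against 0.889 in Klf4 dEC and 0.647 in the control, a log2 ratio of 2.46 (range over clusters 2.02 to 4.30). Fth1, the ferritin heavy chain that stores iron, had 4.6 in Klf4 dEC Nos3 null and 0.823 in Nos3 null, against 4.54 in Klf4 dEC and 2.83 in the control, a log2 ratio of 2.37. Its level was far higher in cluster 12, with 56.6, 4.65, 19.8 and 13.9 in the same 4 libraries. Kap, an androgen-regulated kidney transcript of the proximal tubule, had 18.4 in Klf4 dEC Nos3 null and 4.17 in Nos3 null, against 27.1 in Klf4 dEC and 18.2 in the control, a log2 ratio of 2.23. For these 3 genes the library labelled Nos3 null lay below the other libraries in 19 of 19 clusters.

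Mitochondrially encoded transcripts, which are made outside the nucleus, gave 7 of the 46. The highest, mt-Atp6, a subunit of ATP synthase, had 7.07 in Klf4 dEC Nos3 null and 1.5 in Nos3 null, against 6.67 in Klf4 dEC and 6.33 in the control, a log2 ratio of 2.07 (range over clusters 1.27 to 2.78). Spp1, which encodes osteopontin, a secreted phosphoprotein of distal segments and injured tubule, had 2.78 in Klf4 dEC Nos3 null and 0.474 in Nos3 null, against 2.26 in Klf4 dEC and 2.19 in the control, a log2 ratio of 1.85. Slc25a5, the mitochondrial ADP and ATP exchanger, was at 1.76. Prdx5, a peroxiredoxin, was at 1.75. Selenop, a selenium carrier, was at 1.63, and Pim3, a serine and threonine kinase, at 1.57. Umod, which encodes uromodulin of the thick ascending limb, was shared although it is the product of 1 segment: outside thick ascending limb-like clusters and cluster 7, which medians outside a class always leave out, it had a median of 3.52 in Klf4 dEC Nos3 null and 1.06 in Nos3 null, against 2.05 in Klf4 dEC and 2.13 in the control.

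The shared higher genes set the library labelled Nos3 null apart more often than the other one. For 36 of the 46 the Nos3 null level lay below both Klf4 dEC and control in at least 15 of the 19 clusters, for 3 the Klf4 dEC Nos3 null level lay above both in as many, and for 7 both held. Hsp90ab1, a cytosolic chaperone, and Actg1, cytoskeletal actin, are among those 3. Hsp90ab1 had a median of 1.21 in Klf4 dEC Nos3 null and 0.584 in Nos3 null, against 0.707 in Klf4 dEC and 0.610 in the control. Actg1 had 1.04 in Klf4 dEC Nos3 null and 0.473 in Nos3 null, against 0.569 in Klf4 dEC and 0.486 in the control. Over the 46 genes, the median log2 ratio to the control was 0.19 for Klf4 dEC Nos3 null and -1.08 for Nos3 null. The 46 were chosen because these 2 libraries differ. How often either library stands apart over all 3219 genes was not computed.

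The shared lower genes were mostly long genes of the proximal tubule. Cubn and Lrp2 encode cubilin and megalin, the endocytic receptors that take up filtered protein. Cubn had 0.740 in Klf4 dEC Nos3 null and 3.57 in Nos3 null, against 1.21 in Klf4 dEC and 1.18 in the control, a log2 ratio of -1.96 (range over clusters -3.64 to -0.15). Lrp2 had 2.90 in Klf4 dEC Nos3 null and 9.87 in Nos3 null, against 6.16 in Klf4 dEC and 3.11 in the control, a log2 ratio of -1.82 (range over clusters -3.53 to -0.23).

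Fut9, a fucosyltransferase of carbohydrate chains, had 8.12 in Klf4 dEC Nos3 null and 27.8 in Nos3 null, against 14.3 in Klf4 dEC and 9.99 in the control, a log2 ratio of -1.76. Cdh18, a cadherin, was at -1.73, Tnfaip8, named for its induction by tumour necrosis factor, at -1.67, and Epb41l3, a membrane skeleton protein, at -1.67. Hnf4g, a nuclear receptor of proximal tubule and gut, was at -1.64, and Slc22a23, a transporter-family gene with no agreed substrate, at -1.55. Trpm6, the magnesium channel of the distal convoluted tubule, was at -1.62 and had its top level in cluster 9, and Cdh18 had its top level in connecting tubule-like cluster 11. For 29 of the 49 genes the Nos3 null level lay above both Klf4 dEC and control in at least 15 of the 19 clusters, for 5 the Klf4 dEC Nos3 null level lay below both in as many, for 10 both held and for 5 neither. These counts too have no share over all 3219 genes beside them. The median log2 ratio to the control over the 49 was -0.28 for Klf4 dEC Nos3 null and 1.13 for Nos3 null.

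**Figure D2:**
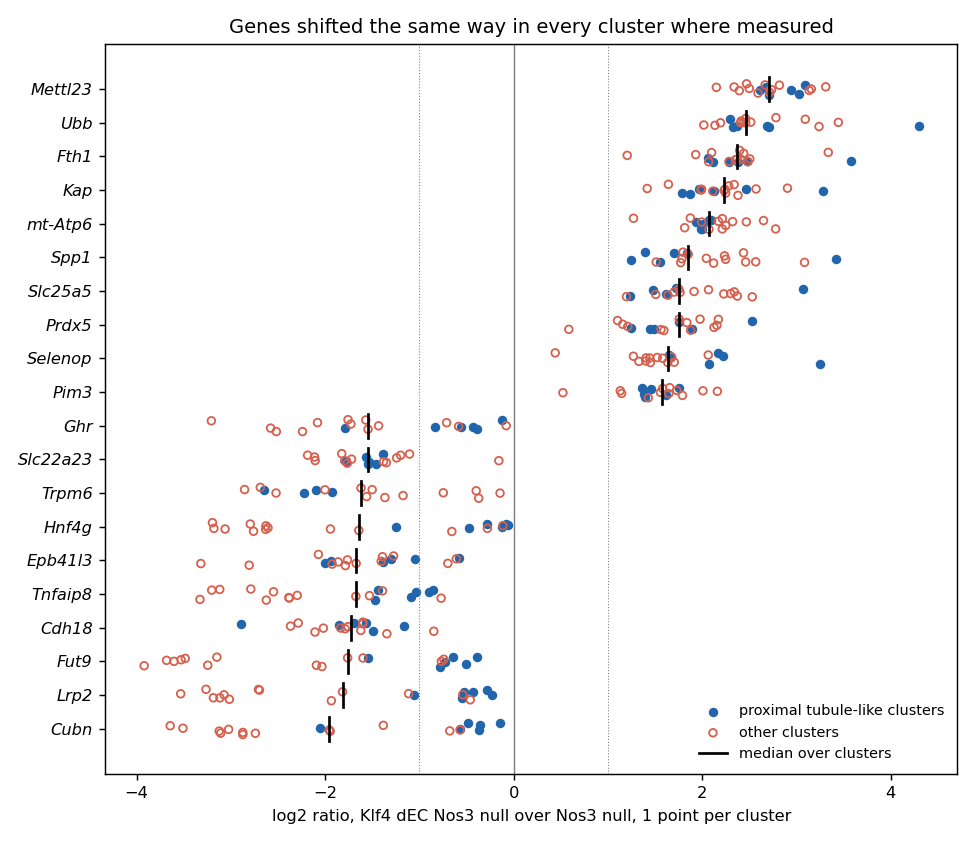
Log2 ratio of Klf4 dEC Nos3 null over Nos3 null in each cluster for the 10 highest and 10 lowest shared genes among those reported here with an approved name, with filled points for proximal tubule-like clusters, open points for the other clusters and a bar for the median. The higher genes, from Mettl23 at a median of 2.71, show both kinds of point together, while Lrp2 and Cubn have most of their proximal tubule-like points nearer 0 than most of their open points.

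The lower genes differed most outside the clusters where they are abundant. Of the 49, 42 had their top level in a proximal tubule-like cluster, and 43 had a more negative median outside the proximal tubule-like clusters than inside them. A proximal top level was not particular to them: of the 46 shared higher genes, 35 had it too, 30 of them in cluster 12. The share over all 3219 genes was not computed. The median over the 49 was -1.90 outside and -0.65 inside, while the 46 higher genes had 1.33 outside and 1.43 inside, and all 3219 genes had -0.02 in both. Lrp2 in cluster 5, its top cluster, had 20.4 in Klf4 dEC Nos3 null and 24.9 in Nos3 null, against 23.9 in Klf4 dEC and 19.2 in the control. Outside the proximal tubule-like clusters its median was 1.00 in Klf4 dEC Nos3 null and 9.17 in Nos3 null, against 1.62 in Klf4 dEC and 1.52 in the control. The gap between the libraries was small in the cluster richest in megalin and large in the clusters where it is scarce.

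The whole list of 14 proximal tubule markers showed this too. Its summed level in thick ascending limb-like cluster 2 was 12.6 in Klf4 dEC Nos3 null and 57.0 in Nos3 null, against 17.8 in Klf4 dEC and 16.2 in the control. In intercalated cell-like cluster 16 it was 11.6 in Klf4 dEC Nos3 null and 62.2 in Nos3 null, against 17.2 in Klf4 dEC and 16.4 in the control. Over the 12 clusters outside the proximal tubule-like class and cluster 7, the sum was lower in Klf4 dEC Nos3 null in 11, with a median log2 ratio of -2.01 (range over clusters -2.42 to 0.16). The exception was stroma-like cluster 13, with 108 in Klf4 dEC Nos3 null and 96.9 in Nos3 null, against 84.8 in Klf4 dEC and 94.1 in the control. In proximal tubule-like cluster 0 the sum was 214 in Klf4 dEC Nos3 null and 209 in Nos3 null, against 213 in Klf4 dEC and 207 in the control. These markers include Lrp2, Cubn, Slc13a3 and Slc27a2, which are themselves among the 49.

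**Figure D3:**
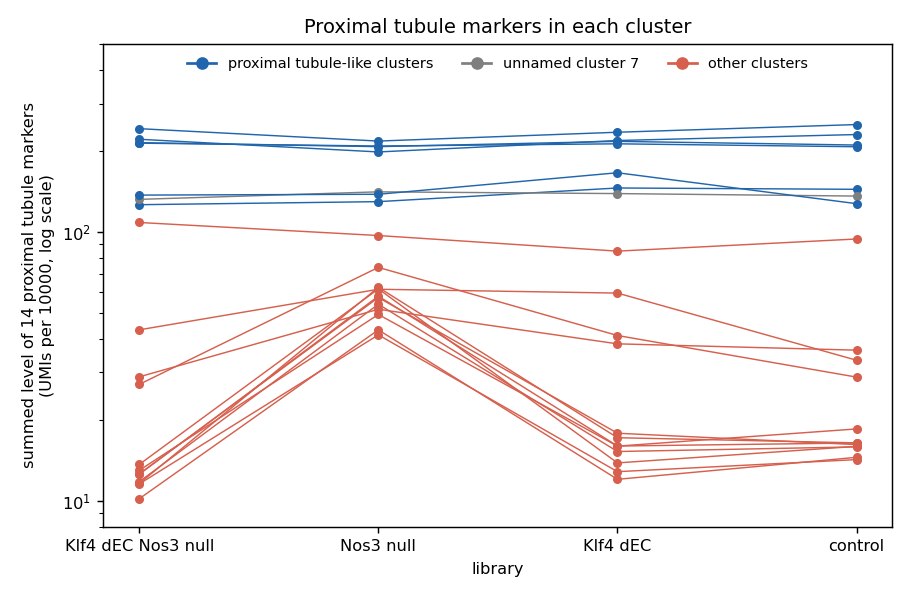
Summed level of 14 proximal tubule markers in UMIs per 10000 (log scale) in the 4 libraries, with 1 line per cluster. In most clusters outside the proximal tubule the library labelled Nos3 null sits highest, for example at 57.0 against 12.6 in Klf4 dEC Nos3 null in cluster 2, while the proximal tubule-like clusters run nearly flat.

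Markers of other segments moved with this outside their own class. Connecting tubule markers summed outside their class were lower in Klf4 dEC Nos3 null in 16 of 16 clusters, with a median log2 ratio of -2.94. In proximal tubule-like cluster 0 their sum was 0.718 in Klf4 dEC Nos3 null and 9.03 in Nos3 null, against 0.896 in Klf4 dEC and 1.32 in the control. Slc8a1, the sodium and calcium exchanger of the connecting tubule, carried that list: its median outside the class was 1.16 in Klf4 dEC Nos3 null and 14.8 in Nos3 null, against 2.09 in Klf4 dEC and 2.50 in the control. In its own cluster 11 the gene had 574 in Klf4 dEC Nos3 null and 565 in Nos3 null, against 643 in Klf4 dEC and 763 in the control. Of the 4 list members measured outside the class, 3 had a median below 0 and 1, S100g, went the other way. S100g was higher in 6 of 6 clusters where it was measured there, with a median log2 ratio of 1.60. Intercalated cell markers were lower in 16 of 16 clusters outside their class (median -1.54), endothelial markers in 17 of 18 (-1.79) and podocyte markers in 15 of 17 (-0.74).

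Not all segments behaved so. Slc12a3, the thiazide-sensitive cotransporter, had a median outside its class of 0.443 in Klf4 dEC Nos3 null and 3.75 in Nos3 null, against 0.998 in Klf4 dEC and 0.853 in the control, and the whole distal convoluted list was lower in 13 of 17 clusters (median -0.35). Thick ascending limb markers were lower in 9 of 15 (median -0.28). Principal cell markers were lower in 4 of 17 (median 0.44) and thin limb markers in 0 of 17 (median 0.80). Markers of injured tubule were lower in 0 of 18 clusters (median 1.60), carried by Spp1. Depth and the level of other segments' transcripts moved with the shared lower genes, and their part in these ratios was not tested.

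Gene length went with the ratio. Of the 3219 genes, 3131 (97.3%) had a RefSeq genomic length, and Spearman's rho across these genes between length and the median log2 ratio was -0.39, against -0.06 for Klf4 dEC over control. With the control as denominator it was -0.40 for Klf4 dEC Nos3 null and 0.21 for Nos3 null. Genes are not independent replicates, so rho is a description. It was below 0 in 19 of 19 clusters, between -0.47 and -0.14. In 10 groups of nearly equal size by length, the shortest genes, with a median of 13 kb, had a median log2 ratio of 0.23, and the longest, at 349 kb, had -0.27. For the same groups Klf4 dEC over control gave 0.00 and -0.02. The 30 shared higher genes with a length had a median of 4036 bases, and the 47 shared lower genes with one had a median of 154281 bases. Shared higher genes without a length are the 7 mitochondrially encoded ones and genes of predicted name. Some of the latter have GENCODE spans longer than the median of the shared lower genes, against the trend.

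**Figure D4:**
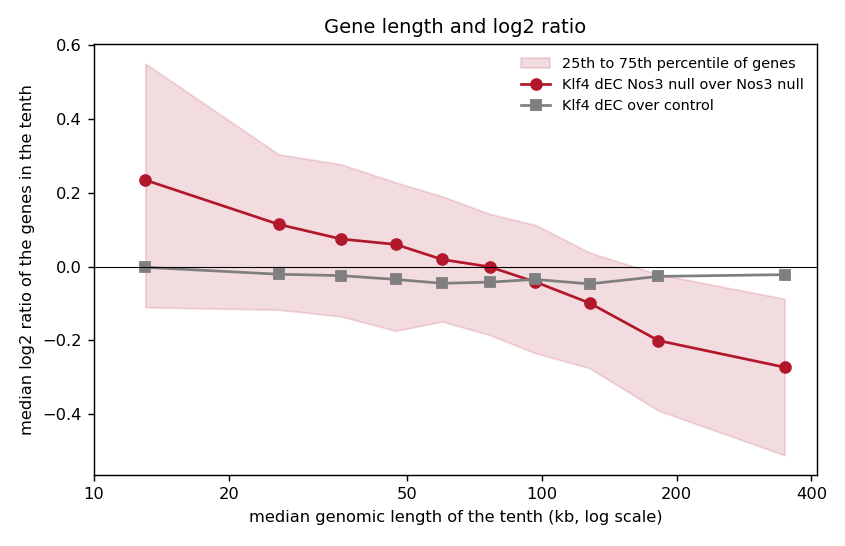
Median log2 ratio (y axis) of genes measured in at least 15 clusters, in 10 groups by genomic length (x axis, kb, log scale), with a red line for the ratio of Klf4 dEC Nos3 null to Nos3 null (25th to 75th percentile of genes shaded) and a grey line for Klf4 dEC to control. The red line runs from 0.23 at 13 kb to -0.27 at 349 kb, and the grey line stays near 0.

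Gene lists were first described by the gene median over clusters. Of all 7994 genes measured in any cluster, 1137 (14.2%) had a median at the limit or higher and 277 (3.47%) at the limit or lower, with a median of 0.13. Members enter through whichever library is the higher, so the counts leave out members low in both. Of 31 lists, 6 had a median past the limit, all higher, and 3 without cluster 12. Cytosolic ribosomal proteins had 1.95, with 29 of 33 measured members past the limit, and nuclear respiratory chain genes 1.08, with 21 of 35. The mitochondrially encoded list had 1.07, with 9 of 12, immediate early genes 1.13, with 5 of 10, interferon and MHC class I genes 1.06, with 4 of 8, and ubiquitin and proteasome genes 1.01, with 5 of 9. Synaptic and adhesion genes had the lowest median at -0.96, with 7 of 15 past the limit and lower.

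Lists were then compared by the summed level of all their members, which needs no filter. Lists of organelle and housekeeping genes were higher in Klf4 dEC Nos3 null in 19 of 19 clusters. The 13 mitochondrially encoded genes summed to a median of 49.5 in Klf4 dEC Nos3 null and 21.9 in Nos3 null, against 51.0 in Klf4 dEC and 53.1 in the control, a median log2 ratio of 1.15. The 76 cytosolic ribosomal protein genes summed to 11.3 in Klf4 dEC Nos3 null and 5.35 in Nos3 null, against 9.13 in Klf4 dEC and 8.10 in the control, a log2 ratio of 1.05. Iron handling genes, led by Fth1 and the ferritin light chain Ftl1 (1.44), were at 1.06, with sums of 11.6 in Klf4 dEC Nos3 null and 5.91 in Nos3 null, against 10.3 in Klf4 dEC and 8.49 in the control. In these 3 lists the library labelled Nos3 null had the lowest median sum.

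Heat shock and ubiquitin lists were likewise lowest in Nos3 null, and the library labelled Klf4 dEC Nos3 null had the highest median sum, as it did for the ribosomal and iron lists. Heat shock and chaperone genes summed to 6.66 in Klf4 dEC Nos3 null and 3.59 in Nos3 null, against 4.18 in Klf4 dEC and 3.79 in the control, a log2 ratio of 0.91 (range over clusters 0.33 to 1.85), higher in 19 of 19 clusters. Ubiquitin and proteasome genes summed to 5.21 in Klf4 dEC Nos3 null and 2.92 in Nos3 null, a log2 ratio of 0.98. Klf4 dEC had 4.22 and the control 3.65. Ubb led this list, and Psmd4, a proteasome subunit, was at -0.31. Immediate early genes were at 0.64 and higher in 17 of 19 clusters. Nuclear-encoded respiratory chain genes were at 0.65 in 19 of 19, with Sdhb, a succinate dehydrogenase subunit, at -0.50 and Atp5l, an ATP synthase subunit, at -0.31 against the trend.

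Nuclear-retained RNA was nearly level, at 0.12. Malat1, its most abundant member, had 789 in Klf4 dEC Nos3 null and 705 in Nos3 null, against 1022 in Klf4 dEC and 907 in the control. Core clock genes were at -0.16, unfolded protein response genes at 0.25 (sums of 8.26 in Klf4 dEC Nos3 null and 6.75 in Nos3 null, against 9.09 in Klf4 dEC and 8.98 in the control), hypoxia genes at 0.38 and osmolyte genes at 0.17. Nitric oxide and cGMP genes, the pathway of the shared Nos3-/- label, were at 0.13 and higher in 11 of 19 clusters. The median over measured members had the opposite sign for nitric oxide and cGMP genes (-0.42) and for nuclear-retained RNA (-0.09).

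Other lists were lower. Clock output genes, which pass the clock's rhythm to metabolism, were lower in 19 of 19 clusters at a median of -0.44, with sums of 5.10 in Klf4 dEC Nos3 null and 6.45 in Nos3 null, against 5.56 in Klf4 dEC and 7.09 in the control. Among them Hlf was at -0.86 and Tef at -0.56, both of the PAR bZIP family, while Usp2 was at -0.01. The KLF family list was lower in 18 of 19 clusters at -0.36, with sums of 9.18 in Klf4 dEC Nos3 null and 11.9 in Nos3 null, against 11.6 in Klf4 dEC and 9.63 in the control. In Klf4 dEC over control the same list was higher in 19 of 19 clusters at 0.22, so the 2 label differences pointed opposite ways, a contrast that was not tested. Of its 8 measured members 3 had a median above 0, with 2 past the limit and 0 past it downward: Klf6 was at 1.26 in 5 clusters and Klf5 at 1.78 in 1, while Klf9 was at -0.59 and Klf13 at -0.47 in 19. SLC22 organic ion transporters were at -0.72, distal calcium and magnesium genes at -0.66 and synaptic and adhesion genes at -0.51, and the lowest members of these lists, Slc22a23, Slc8a1 (-3.23) and Ctnna2 (-1.95), lay low outside the segments that hold their top levels or across most clusters.

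Segment transport genes were then read in their own class, where a class value is the median over its clusters. In proximal tubule-like clusters, 919 of 5776 genes (15.9%) were higher by the limit and 154 (2.67%) lower. A class value uses only the clusters where a gene passes the filter, so genes measured in cluster 12 alone count in full. Higher genes made up 23.6% in cluster 12 and between 2.95% and 3.8% in the other proximal tubule-like clusters. Of 13 measured sodium, glucose and phosphate transport genes, 0 were higher and 1 lower. That gene is Pth1r, the parathyroid hormone receptor, with a mean of 3.19 in Klf4 dEC Nos3 null and 5.47 in Nos3 null, against 2.96 in Klf4 dEC and 2.52 in the control, a class value of -1.16. It was lower in 5 of the 6 clusters and at 0.39 in cluster 12. Slc34a1, the main phosphate cotransporter, was level at 0.16, with 58.5 in Klf4 dEC Nos3 null and 50.7 in Nos3 null, against 61.6 in Klf4 dEC and 52.2 in the control. Slc5a2, the glucose cotransporter SGLT2, was level at -0.02.

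Of 14 SLC22 genes, 0 were higher and 2 lower, Slc22a23 at -1.54 and Slc22a4, a carnitine and ergothioneine transporter, at -1.31. The urate transporter Slc22a12 was at 0.41. All 12 gluconeogenesis and ammoniagenesis genes were measured, with 0 higher and 1 lower: Slc16a7, a monocarboxylate transporter, at -1.30, while Pck1, the rate-limiting enzyme of gluconeogenesis, was at -0.02. Of 18 fatty acid oxidation genes 14 were measured and had values above 0, against a median of 0.10 for all genes of the class. The 3 past the limit, Acadvl, Hadhb and Acot1, were measured in cluster 12 alone.

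In thick ascending limb-like clusters 1 of 13 transport genes was higher and 0 lower, against 6.06% and 7.34% of all genes. Umod was that gene, with a mean of 25.0 in Klf4 dEC Nos3 null and 8.98 in Nos3 null, against 20.1 in Klf4 dEC and 16.9 in the control, a class value of 1.45 that passed the limit in all 3 clusters. Slc12a1, the loop-diuretic-sensitive cotransporter NKCC2, had 197 in Klf4 dEC Nos3 null and 107 in Nos3 null, against 202 in Klf4 dEC and 197 in the control, a value of 0.87. Cldn16, a tight junction protein for magnesium and calcium, was at 0.99. For Slc12a1 and Umod, the library labelled Nos3 null was the lowest of the 4.

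Of 10 genes of the thiazide cotransporter and WNK pathway in distal convoluted tubule-like cluster 9, 0 passed the limit, against 3.64% higher and 5.39% lower among all its genes. Slc12a3 had 191 in Klf4 dEC Nos3 null and 176 in Nos3 null, against 212 in Klf4 dEC and 189 in the control, a log2 ratio of 0.12. Wnk1, a kinase that raises cotransporter activity, had 58.0 in Klf4 dEC Nos3 null and 31.5 in Nos3 null, against 63.2 in Klf4 dEC and 67.2 in the control, a ratio of 0.88.

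Among 11 distal calcium and magnesium genes in connecting tubule-like clusters, 1 was higher and 1 lower, against 5.99% and 7.76% of all genes. S100g, the small calcium buffer calbindin-D9k, had 4.81 in Klf4 dEC Nos3 null and 1.92 in Nos3 null, against 4.81 in Klf4 dEC and 5.33 in the control, a value of 1.27. Calb1, calbindin-D28k, was at 0.98, and the apical calcium channel Trpv5 at 0.66. Egf, whose product stimulates magnesium uptake, was the lower one at -1.28, with 3.05 in Klf4 dEC Nos3 null and 6.56 in Nos3 null, against 2.45 in Klf4 dEC and 4.12 in the control. Egf is also a thick ascending limb marker. In that class it had 100 in Klf4 dEC Nos3 null and 79.8 in Nos3 null, against 116 in Klf4 dEC and 127 in the control, a value of 0.36. Outside that class and cluster 7, Egf was lower in 13 of 15 clusters.

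Of these transport lists, that of principal cell-like cluster 8 had the most members past the limit, with 4 of 12 sodium and water transport genes higher and 0 lower, against 6.86% and 8.08% of all its genes. Aqp2, the vasopressin-regulated water channel, had 11.9 in Klf4 dEC Nos3 null and 4.68 in Nos3 null, against 6.88 in Klf4 dEC and 3.21 in the control, a log2 ratio of 1.33 (1.09 to 1.61). Aqp3, the basolateral water channel, had 3.43 in Klf4 dEC Nos3 null and 1.03 in Nos3 null, against 1.27 in Klf4 dEC and 0.971 in the control, a ratio of 1.64 (1.19 to 2.32). These 2 genes stood highest in Klf4 dEC Nos3 null. Hsd11b2, which protects the mineralocorticoid receptor from glucocorticoids, had 4.18 in Klf4 dEC Nos3 null and 1.43 in Nos3 null, against 2.90 in Klf4 dEC and 3.06 in the control, a ratio of 1.48 (1.08 to 2.04). Aqp4, another basolateral water channel, was at 1.65 with its highest level, 6.57, in Klf4 dEC. Scnn1b, a subunit of the sodium channel ENaC, was at -0.57. The median of the other classes where the gene was measured was 1.68 for Aqp2, 2.15 for Aqp3 and 2.02 for Hsd11b2. Those medians rest on few clusters: outside clusters 8 and 7, Aqp2 passed the filter in 4, Aqp3 in 2 and Hsd11b2 in 3. Klf4 dEC Nos3 null was the higher library in each, so the filter favours high ratios there. How far the shift extends beyond cluster 8 cannot be read from them.

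In intercalated cell-like clusters 2 of 16 acid-base genes were higher and 1 lower, against 6.68% and 7.10% of all genes. Foxi1, the transcription factor that sets up these cells, had 1.06 in Klf4 dEC Nos3 null and 0.348 in Nos3 null, against 0.477 in Klf4 dEC and 0.614 in the control, a value of 1.36. Aqp6, an intracellular channel of acid-secreting cells, was at 1.73 and measured in 1 cluster. Slc26a4, the bicarbonate exchanger pendrin of base-secreting cells, had opposite signs: cluster 14, which makes it, had 96.8 in Klf4 dEC Nos3 null and 79.0 in Nos3 null, against 89.2 in Klf4 dEC and 99.7 in the control, a ratio of 0.29. Cluster 16 had 0.240 in Klf4 dEC Nos3 null and 1.77 in Nos3 null, against 0.155 in Klf4 dEC and 0.164 in the control, a ratio of -2.45.

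Thin limb-like cluster 18 differed in its own markers. All 6 measured markers of 7 were higher by the limit, with a median of 3.04, against 11.5% of all its genes. Their summed level was 36.8 in Klf4 dEC Nos3 null and 3.38 in Nos3 null, against 15.3 in Klf4 dEC and 20.2 in the control. Slc14a2, the urea transporter of the thin descending limb and inner medulla, had 20.6 in Klf4 dEC Nos3 null and 1.25 in Nos3 null, against 3.80 in Klf4 dEC and 6.86 in the control. Aqp1, the water channel of the descending limb, had 6.73 in Klf4 dEC Nos3 null and 0.784 in Nos3 null, against 3.54 in Klf4 dEC and 4.75 in the control. The cluster held 103 nuclei in Klf4 dEC Nos3 null and 83 in Nos3 null. Proximal tubule and stroma markers were lower there, with a proximal tubule sum of 27.1 in Klf4 dEC Nos3 null and 73.8 in Nos3 null, against 41.2 in Klf4 dEC and 28.8 in the control. The stroma sum was 2.29 in Klf4 dEC Nos3 null and 4.69 in Nos3 null, against 5.76 in Klf4 dEC and 2.74 in the control, so in Nos3 null it exceeded the thin limb sum. The part of these markers in the ratios was not tested.

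Shifts of single classes were separated next. A gene was called single-class where its class value passed the limit, the median of at least 3 other classes lay within 0.5 of 0, and the class value differed from that median by 1 or more. This gave 366 higher and 511 lower pairs of a gene and a class, from 697 distinct genes, of which 136 were called in 2 or more classes. Thin limb-like cluster 18 had the most, with 142 higher (2.93%) and 102 lower (2.11%) of 4840 genes. Proximal tubule-like clusters had 49 higher (0.848%) and 62 lower (1.07%), but 1 and 2 of these passed in all 6 clusters, and without cluster 12 there were 8 higher and 22 lower. Thick ascending limb-like clusters had 22 higher (0.426%) and 71 lower (1.38%), principal cell-like cluster 8 had 37 (0.821%) and 65 (1.44%), and connecting tubule-like clusters had 26 (0.535%) and 64 (1.32%). Distal convoluted tubule-like cluster 9 had 9 (0.213%) and 24 (0.567%), intercalated cell-like clusters 27 (0.538%) and 52 (1.04%), podocyte-like cluster 15 had 23 (0.605%) and 46 (1.21%), stroma-like cluster 13 had 25 each (0.535%), and cluster 7 had 6 higher (0.141%) and 0 lower.

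Most single-class pairs had the gene's top level, averaged over the 4 libraries, in another class. This held for 497 (97.3%) of the 511 lower pairs and 319 (87.2%) of the 366 higher pairs. Each gene has 1 top class among 10, so a high share elsewhere is built in. The share over all measured pairs was not computed. Among the lower pairs, Nos3 null alone lay outside the range of Klf4 dEC and control in 120, Klf4 dEC Nos3 null alone in 20, and both in 366. No share over all measured pairs was computed for these counts either. Mecom, a transcription factor gene of distal segments, was the lowest of the genes that passed in all 6 proximal tubule-like clusters. In cluster 0 it had 0.331 in Klf4 dEC Nos3 null and 3.13 in Nos3 null, against 0.339 in Klf4 dEC and 0.387 in the control, a log2 ratio of -2.90. In principal cell-like cluster 8, where it is abundant, it had 52.3 in Klf4 dEC Nos3 null and 46.4 in Nos3 null, against 58.2 in Klf4 dEC and 56.3 in the control, and in the podocyte-like class it was past the limit too (-1.16).

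Plcb1, a phospholipase C of G protein signalling, was the lowest single-class gene by difference in principal cell-like and connecting tubule-like clusters. In cluster 8 it had 0.892 in Klf4 dEC Nos3 null and 7.33 in Nos3 null, against 1.51 in Klf4 dEC and 1.73 in the control, a log2 ratio of -2.90, and it was also past the limit in the connecting tubule-like (-3.30), distal convoluted tubule-like (-2.39), podocyte-like (-1.47) and intercalated cell-like (-1.38) classes. In proximal tubule-like cluster 3 it had 20.3 in Klf4 dEC Nos3 null and 18.8 in Nos3 null, against 29.7 in Klf4 dEC and 23.5 in the control. In podocyte-like cluster 15, Slit2, a secreted guidance ligand, had 0.683 in Klf4 dEC Nos3 null and 2.70 in Nos3 null, against 1.07 in Klf4 dEC and 1.12 in the control, a ratio of -1.84, and its top level lay in the connecting tubule-like class, where its value was 0.92. Slit2 was also past the limit in the proximal tubule-like (-2.50) and stroma-like (-1.03) classes.

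The thick ascending limb-like genes chosen by rank, Dhx32, Ulk4 and Tmco3 higher and Cmbl, Stim1 and Ppp6r1 lower, passed in cluster 19 alone. Among those past the limit in all 3 clusters, named here after their values were seen, Mtus1, a microtubule-associated tumour suppressor, had 0.216 in Klf4 dEC Nos3 null and 1.53 in Nos3 null in cluster 2, against 0.349 in Klf4 dEC and 0.336 in the control. Mtus1 was also past the limit in the distal convoluted tubule-like (-1.84), thin limb-like (-1.73) and connecting tubule-like (-1.19) classes. The proximal tubule-like genes Arid3a and Ywhab (higher) and Vps4b and Rtl4 (lower) rested on cluster 12 alone. In distal convoluted tubule-like cluster 9, Plxdc2, a transmembrane receptor with its top level in the podocyte-like class, had 0.885 in Klf4 dEC Nos3 null and 5.69 in Nos3 null, against 1.39 in Klf4 dEC and 1.96 in the control, a ratio of -2.55, and was also past the limit in the connecting tubule-like class (-1.47).

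A smaller set was shifted in a class that makes the gene: 47 of the 366 higher and 14 of the 511 lower pairs had their top level there. Sult1d1, a sulphotransferase of the proximal tubule, was higher in proximal tubule-like clusters at 1.48 and was the 1 higher gene of that class past the limit in all 6 clusters. In cluster 5 it had 3.85 in Klf4 dEC Nos3 null and 0.894 in Nos3 null, against 4.03 in Klf4 dEC and 3.62 in the control, and it was also higher by the limit in cluster 7 (1.66) and in the stroma-like (1.23) and thin limb-like (1.14) classes. Folh1, a glutamate carboxypeptidase of the brush border, had a proximal tubule-like class value of 2.14, with a mean over the 5 clusters where it was measured of 4.98 in Klf4 dEC Nos3 null and 0.941 in Nos3 null, against 2.45 in Klf4 dEC and 3.00 in the control. In thick ascending limb-like clusters, where it is scarce, Folh1 had a class value of -1.66, while it was higher by the limit in cluster 7 (2.14) and in the stroma-like (1.53) and podocyte-like (1.53) classes. Both genes stood lowest in Nos3 null in the class that makes them.

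In principal cell-like cluster 8, Ranbp3l, a Ran-binding protein gene induced by hypertonicity, had 9.23 in Klf4 dEC Nos3 null and 2.66 in Nos3 null, against 43.6 in Klf4 dEC and 4.30 in the control, a ratio of 1.76, and was also past the limit in thin limb-like cluster 18 (1.96). The library labelled Klf4 dEC stood far above the other 3. In thin limb-like cluster 18, Susd1 had 1.84 in Klf4 dEC Nos3 null and 0.179 in Nos3 null, against 0.903 in Klf4 dEC and 1.53 in the control, a ratio of 2.80. In stroma-like cluster 13, Lypd6b, of the Ly6 family, had 0.664 in Klf4 dEC Nos3 null and 0.0685 in Nos3 null, against 0.0431 in Klf4 dEC and 0.0320 in the control, a ratio of 2.18. Of the 4 libraries, Lypd6b was high in Klf4 dEC Nos3 null alone.

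A few genes at or near 0 give bounds. Efnb2, an ephrin ligand, was listed at 0 in Nos3 null in intercalated cell-like cluster 16 and had 0.588 in Klf4 dEC Nos3 null, against 0.50 in Klf4 dEC and 0.320 in the control, which is at least 2.90-fold higher than a floor of 3 counts in Nos3 null (0.203 per 10000). Atl2, an endoplasmic reticulum GTPase, was higher in both intercalated cell-like clusters, with 1.13 in Klf4 dEC Nos3 null and 0.295 in Nos3 null in cluster 16, against 0.670 in Klf4 dEC and 0.655 in the control. In podocyte-like cluster 15, Klf3, a repressor of the Krüppel-like family, had 0.545 in Klf4 dEC Nos3 null and 0.201 in Nos3 null, against 0.609 in Klf4 dEC and 0.606 in the control, a ratio of 1.10.

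**Figure D5:**
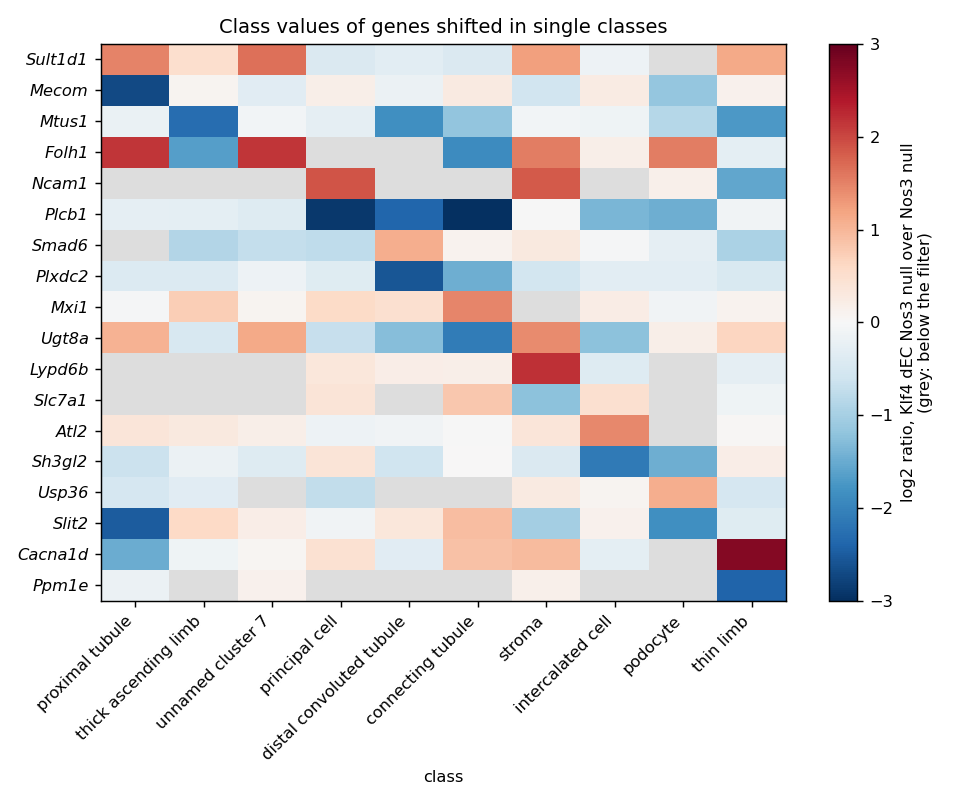
Class values of the log2 ratio of Klf4 dEC Nos3 null over Nos3 null (colour, red higher and blue lower) for genes shifted in single classes, with classes across and 1 gene per row, and grey where the gene was below the filter. Mecom is blue in the proximal tubule-like class at -2.71 and pale in most others, and Cacna1d is red in the thin limb-like class at 2.74.

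The same label difference with Nos3 intact gave other values. For the 46 shared higher genes the median log2 ratio of Klf4 dEC over control, taken without the filter, was 0.25, with 34 of 46 above 0. Of all 3219 genes measured in at least 15 clusters of the main comparison, 40.7% were above 0 in Klf4 dEC over control. For the 49 shared lower genes the median was 0.06, with 20 of 49 below 0, where 59.3% of the same 3219 genes were. In the same direction, 0 of the 46 and 0 of the 49 passed the limit in Klf4 dEC over control. Cdh18 was among the genes that passed it in the opposite direction. The summed mitochondrially encoded genes were at -0.06 in Klf4 dEC over control, against 1.15 in Klf4 dEC Nos3 null over Nos3 null.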

How the data were processed

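Nuclei from kidney cortex of 4 genotypes, 1 library each, were sequenced as nuclear RNA on a droplet platform. Cell Ranger, Seurat and the mm10 build (GRCm38) were used, per the submitters' processing notes, with no versions given. The values are a normalized signal deposited as 1 table, with 21046 genes and 92 columns (23 clusters by 4 libraries). Each column sums to 10000, so a value is the mean over nuclei of UMIs per 10000. The clustering is the authors', per the file headers. How doublets and free RNA were treated, and whether reads were counted by strand, is not given in the labels or header.

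Nuclei numbers were inferred from the reciprocals of the lowest 300 values of a column, as the largest number dividing at least 70% of them, and give the effective UMIs behind the counting intervals (exact Poisson for levels, Clopper-Pearson for ratios and shares). On simulated data, 38 of 38 nuclei numbers were exact, effective UMIs were off by at most 9.17%, 50 of 50 genes changed 4-fold were called in each direction as shared and 50 of 50 as single-class, and 7 unchanged genes of 21046 were called single-class.

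Log2 ratios used a pseudocount of 0.1 and a filter of 0.5 per 10000 in either library; the limit was a log2 ratio of 1 or -1. A class value is the median over the class's clusters that pass the filter. Classes needed a marker score of 0.75, a lead of 0.5 and 3 detected markers, limits set after the table was seen. Named genes are the 10 highest and 10 lowest shared genes, the 3 highest and 3 lowest single-class genes per class, list members at the ends of their ratios, class markers, Klf4 and Nos3; further genes were named after their values were seen, and of the genes the rule takes in, those resting on few nuclei or on predicted names are given as counts. A few genes are counted but not reported here by name. The members and lists were chosen with earlier results of these data known. Promoters came from RefSeq (GRCm38.p6), with entries for 28 of 46 shared higher and 37 of 49 shared lower genes. Python 3.11.15, numpy 2.4.6, pandas 2.3.3, scipy 1.17.1 and matplotlib 3.10.9 were used.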

Additional observations from a re-analysis of the deposited data

Results flagged for a closer look

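The results below had opposite signs in Klf4 dEC Nos3 null over Nos3 null and in Klf4 dEC over control, past the limit of 1 or -1 in both. With 1 library per genotype, no difference between the comparisons was tested.

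Over clusters, Cdh18 had a median log2 ratio of -1.73 in Klf4 dEC Nos3 null over Nos3 null (18 clusters) and 1.08 in Klf4 dEC over control (4 clusters), a difference of -2.81.

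In proximal tubule-like clusters, Zbtb16, a zinc-finger transcription factor induced by glucocorticoids, had class values of 1.96 (4 clusters) and -2.21 (5 clusters) in the same order. Their difference was 4.16. In clusters 1 and 12, where Zbtb16 was below the filter in the first comparison, its log2 ratios there were 0.27 and 0.41. In cluster 5 it had 0.909 per 10000 in Klf4 dEC Nos3 null and 0.140 in Nos3 null, against 0.299 in Klf4 dEC and 2.46 in the control. Ywhab, a 14-3-3 adaptor measured in cluster 12 alone, had 1.96 and -1.39, a difference of 3.35.

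Ncam1, a neural cell adhesion molecule, had 1.89 and -1.81 in principal cell-like cluster 8, a difference of 3.70. Its levels there were 1.00 in Klf4 dEC Nos3 null and 0.196 in Nos3 null, against 0.197 in Klf4 dEC and 0.943 in the control. In stroma-like cluster 13 Ncam1 had 1.84 and -1.01, a difference of 2.84.

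In thin limb-like cluster 18, Cacna1d, an L-type calcium channel, had 2.74 and -1.09, a difference of 3.83. Its class value in Klf4 dEC Nos3 null over Nos3 null was -1.49 in proximal tubule-like clusters. Slc35f1, a solute carrier, had 2.14 and -1.51 in cluster 18, a difference of 3.65. Mtcl1, a microtubule crosslinking protein gene, had 1.84 and -1.10 in 1 intercalated cell-like cluster, a difference of 2.94.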

How the results depend on the processing

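The counts depended most on the pseudocount and the filter. With a pseudocount of 0.5, the counts per cluster, all gene and cluster pairs higher, came to 1774 and the counts per cluster, all gene and cluster pairs lower, to 2355. The shared shifts, higher, were 18 and the shared shifts, lower, 29. The single-class shifts, higher, were 78 and the single-class shifts, lower, 91, and 1 gene list passed the limit (6 with 0.1). With a filter at 1 per 10000 there were 2406 and 3053 pairs, 24 shared higher genes, and 106 and 276 single-class pairs. With no filter there were 14663 and 9896 pairs and 110 shared higher genes. Requiring all 19 clusters gave 30 shared higher genes and at least 10 gave 77. Comparing a class with the other classes whatever their level gave 1297 single-class higher pairs. Among alternatives chosen after seeing the data, 302 single-class lower pairs were past the limit in every cluster of the class, and 3 lists passed the limit with members measured in at least 15 clusters, by summed level, and without cluster 12. Without cluster 12, 42 higher and 57 lower genes were shared, 41 and 44 of them also shared with it. Gene medians over clusters changed sign with no filter for Calcrl (-0.76), Iigp1 (-0.34), Pdgfb (0.28), Psma7 (0.42) and Vim (-0.013), each measured in 1 cluster with the filter, and with the filter at 1 for Prkg1 (0.20). The cause was not tested. No paired analysis was possible because each genotype has 1 library. Depth limits low genes most: in cluster 16 of Nos3 null 3 counts correspond to 0.203 per 10000.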
